A study of Mus musculus with 6 samples.

Results

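Gdpd3 and 7 related genes, Gdpd1, Gdpd2, Gdpd4, Gdpd5, Gde1, Gpcpd1 and Napepld, were followed, 8 genes of 19733 tested. The data come from an array study of protein phosphatase 2A (PP2A) deletion in mouse pre-B cells. The 8 genes were taken by symbol. Each of the 8 was measured by 1 probe set, so taking the probe set with the highest mean over the 6 arrays left no choice to make. Gdpd3 was picked because its signal differed most between the groups, so its values are given as a description with no test. The other 7 were picked by name, as enzymes of the same family or reaction class, and were read from a fit across all genes.

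All 6 samples were bone marrow pre-B cells from mice with both Ppp2r1a alleles floxed (Ppp2r1afl/fl), transformed with the BCR-ABL1 fusion kinase. In 3 of them a Cre vector had been added, which deletes Ppp2r1a, the gene of the PP2A scaffold subunit. The other 3 had received an empty vector (EV), and the labels call these wild type although they carry the floxed alleles and BCR-ABL1 too. By its title, the series asks about PP2A in leukaemic pre-B cell survival and in the cell's redox state. No group had Cre without floxed alleles, so effects of Cre itself and of Ppp2r1a loss cannot be told apart. The titles number the arrays as repeats and do not say whether these came from separate cultures or mice, so the errors below measure the spread between arrays, which may be technical. Neither the time after transduction nor any selection of transduced cells is stated in the labels.

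Glycerophosphodiester phosphodiesterases cut the phosphodiester bond that joins glycerol to a headgroup such as choline, ethanolamine or inositol. Gdpd3 and Gdpd1 are lysophospholipase D enzymes: they act on lysophospholipids, which still carry an acyl chain, and release lysophosphatidic acid (LPA), a lipid that signals through G protein-coupled receptors. Gdpd2, Gdpd4 and Gdpd5 are multi-pass membrane proteins, and of these Gdpd5 is known for releasing proteins from their glycosylphosphatidylinositol (GPI) anchors. Gde1 is a membrane enzyme that cuts glycerophosphoinositol and glycerophospho-N-acylethanolamines, and Gpcpd1 is a cytosolic enzyme that cuts glycerophosphocholine. Napepld belongs to another protein fold, the zinc-dependent metallo-beta-lactamases, and releases N-acylethanolamines from N-acyl phosphatidylethanolamine.

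The bases in front of Gdpd3 and of Gdpd1 are shown because these are the lysophospholipase D pair, with the widest difference between groups in one and a small one in the other. Each run is the 250 bases before the annotated start in RefSeq (GRCm38.p6), read 5′ to 3′ on the gene's strand, with every CG dinucleotide in capitals.
Gdpd3, chr7:126766164-126766413, plus strand: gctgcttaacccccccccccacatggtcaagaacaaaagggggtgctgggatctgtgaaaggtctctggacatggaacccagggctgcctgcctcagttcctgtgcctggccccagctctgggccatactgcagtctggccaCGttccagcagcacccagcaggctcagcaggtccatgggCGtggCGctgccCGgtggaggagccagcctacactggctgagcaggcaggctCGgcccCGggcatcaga
Gdpd1, chr11:87074138-87074387, minus strand: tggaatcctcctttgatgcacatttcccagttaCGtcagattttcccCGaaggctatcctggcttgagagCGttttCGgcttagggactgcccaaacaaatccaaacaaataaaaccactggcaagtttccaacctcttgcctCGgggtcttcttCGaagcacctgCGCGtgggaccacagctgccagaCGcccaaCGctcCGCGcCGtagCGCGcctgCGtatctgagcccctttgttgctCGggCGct
The Gdpd3 window held 6 CG dinucleotides and the Gdpd1 window 18. Over 32851 such windows the median was 6, and 78.3% had fewer than Gdpd1. RefSeq windows were found for 6 of the 8 genes. The other counts were 2 and 7 for the 2 starts of Gdpd2, 7 for Gdpd4, 14 for Gde1 and 21 for Napepld. On either strand, the Gdpd3 window held ACGTG, a form of the core letters bound by hypoxia-inducible factor, which 16.6% of all windows hold. Another form, GCGTG, stands in both printed windows and was not counted over all windows. The Gdpd3 window did not hold CACGTG (an E-box form that contains ACGTG, 6.02% of windows), TATAAA (12.4%), CCAAT (33.8%), GGGCGG (32.7%) or TGACGTCA (1.55%). The Gdpd1 window held none of the 6 exact strings searched, and other forms of these elements were not searched. Matches describe the letters only, since neither factor binding nor methylation was measured.

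The values are log2 expression levels made with RMA, as deposited by the authors. The medians of the 6 arrays over all probe sets lay between 5.22 and 5.27. Across probe sets, r was 0.996 to 0.9969 within groups and 0.9929 to 0.9939 between Cre and EV arrays. Ppp2r1a read 9.06, 9.05 and 9.06 in EV and 7.12, 6.98 and 6.92 in Cre, 4.15-fold lower (limma adjusted p = 1.2e-05). All 6 of these readings lay above the array medians, so Ppp2r1a signal remained in Cre. The source of that signal was not tested. All 9 B lineage markers measured lay above the array median on every array, at a mean level of 10.67 to 10.73 in EV and 10.36 to 10.47 in Cre. Rag1 and Dntt, a pair of genes of V(D)J joining on that list, fell. The 9 myeloid markers lay below the array median on every array, with a mean level of 3.88 to 3.91 in EV and 3.96 to 3.98 in Cre. So did 5 of 6 T cell markers (4.39 to 4.61 in EV, 4.39 to 4.59 in Cre), all 5 erythroid and megakaryocyte markers (4.17 to 4.46 and 4.17 to 4.40) and all 5 stem and progenitor markers (3.73 to 3.84 and 3.75 to 3.82). Below the median everywhere were also 5 of 6 epithelial markers (4.66 to 4.73 in EV, 4.73 to 4.76 in Cre; Krt8 was the exception, with the highest reading, 6.38) and 4 of 6 stromal markers (4.32 to 4.35 and 4.27 to 4.34). None of these other markers passed the test between Cre and EV.

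Gdpd3 signal was high in the EV cells and low in the Cre cells. Probe set 10557470, on chromosome 7, read 9.68, 9.67 and 9.62 in EV and 4.01, 4.10 and 3.99 in Cre. The groups were separated by 5.52 log2 units between the lowest EV array and the highest Cre array, and within each group the arrays lay within a narrow range. The means were 9.66 ± 0.03 in EV and 4.03 ± 0.06 in Cre (SD, n = 3), a difference of -5.62 (SE 0.06) or 49.3-fold. It ranked 1 among 19733 genes for size of fall, ahead of Kynu at -3.64. All 3 Cre arrays read below the array medians and all 3 EV arrays above them. The Cre readings lay near the lower quartiles of the 6 arrays, 3.85 to 3.92. At signals this low a reading may follow transcript poorly, so 49.3-fold is a ratio of signals and may differ from that of transcripts. Leaving out any 1 array moved the difference between -5.66 and -5.60. Fewer cells that express Gdpd3 and less RNA per cell cannot be told apart in such bulk samples.

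Gdpd1, the other lysophospholipase D, was above the array medians in both groups. It read 6.30, 6.19 and 6.37 in EV and 6.39, 6.28 and 5.95 in Cre, so the groups overlapped, with the lowest and the highest reading both in Cre. The difference was -0.08 (SE 0.12; 95% interval -0.35 to 0.19), and it did not pass (limma adjusted p = 0.802). Without Cre replicate 3, the lowest array, it was 0.04. A rise of Gdpd1 as large as the fall of Gdpd3 lies far outside this interval. A fall of that size would take Gdpd1 below 1.22, the lowest reading of any probe set, so it could not have been seen.

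**Figure D1:**
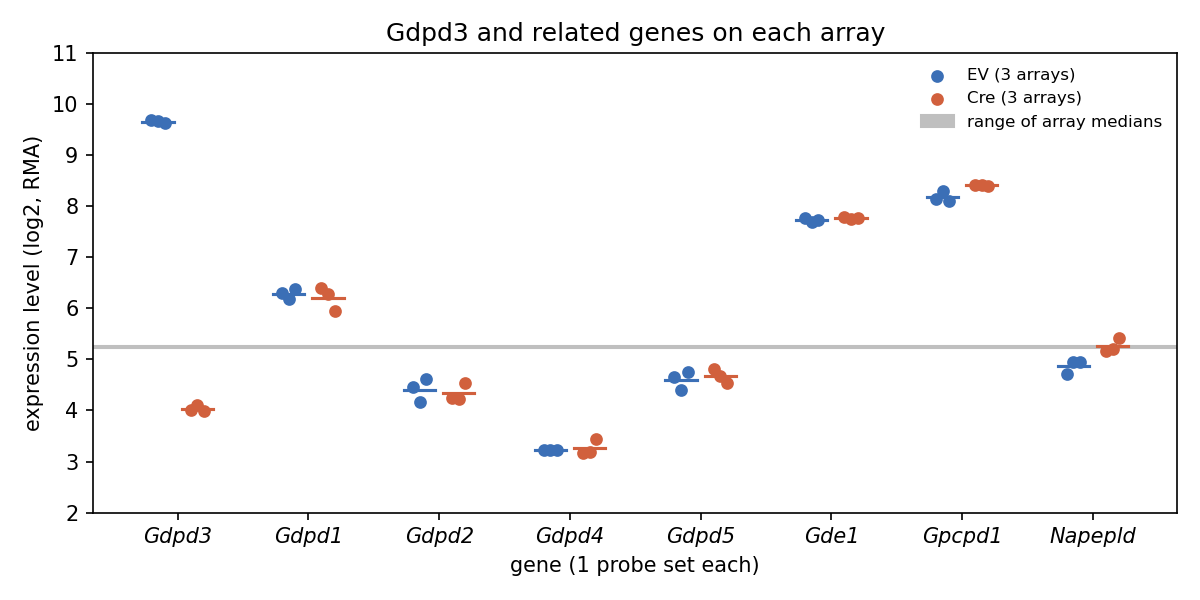
Expression level (log2, RMA) of Gdpd3 and its 7 relatives, with 1 point per array, a short line at each group's mean and a grey band at the range of the array medians (5.22 to 5.27). The 3 EV arrays of Gdpd3 lie between 9.62 and 9.68 and its Cre arrays between 3.99 and 4.10, while the groups of Gdpd1, Gdpd2, Gdpd4, Gdpd5 and Gde1 overlap.

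The 3 multi-pass members were dim on all 6 arrays, below the array medians. Gdpd2, on chromosome X, read 4.46, 4.16 and 4.61 in EV and 4.25, 4.23 and 4.54 in Cre. Its readings were mixed across the groups, with both the highest and the lowest in EV. The difference was -0.07 (SE 0.13; 95% interval -0.38 to 0.24; limma adjusted p = 0.865). Gdpd5, which acts on GPI-anchored proteins, read 4.65, 4.41 and 4.75 in EV and 4.82, 4.68 and 4.54 in Cre, again with overlap. It differed by 0.08 (SE 0.11; 95% interval -0.18 to 0.33; limma adjusted p = 0.8). Gdpd4, the least characterised of the family, read 3.23 on all 3 EV arrays and 3.17, 3.18 and 3.44 in Cre. The Cre readings lay on both sides of the EV ones, with replicate 3 the highest, and the difference was 0.03 (SE 0.09; 95% interval -0.17 to 0.23; limma adjusted p = 0.926). The sign of each of these 3 differences turned when 1 array was left out: to 0.03 without EV replicate 3 for Gdpd2, to -0.02 without EV replicate 2 for Gdpd5 and to -0.06 without Cre replicate 3 for Gdpd4. At signals this low a change in transcript may move the reading little.

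Gde1 and Gpcpd1, which act on water-soluble glycerophosphodiesters, were above the array medians on all 6 arrays. Gde1 read 7.76, 7.69 and 7.72 in EV and 7.78, 7.74 and 7.77 in Cre. The groups overlapped, and the difference of 0.04 (SE 0.06) had a 95% interval of -0.10 to 0.18, a narrow one among the members (limma adjusted p = 0.822). Gpcpd1, which frees choline and glycerol 3-phosphate from glycerophosphocholine, read 8.14, 8.29 and 8.11 in EV and 8.41, 8.41 and 8.40 in Cre. Every Cre array was above every EV array. The difference was 0.23 (SE 0.07; 95% interval 0.06 to 0.39), or 1.17-fold, and it did not pass (limma adjusted p = 0.155; unadjusted p = 0.0127). Gpcpd1 passed in 2 of 14 alternative fits, with limma adjusted p-values from 0.0239 to 0.343 over all of them. Among the 14 are 6 fits with 1 array left out, and Gpcpd1 passed in 0 of these 6.

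Napepld, which releases N-acylethanolamines, had the widest difference among the relatives. It read 4.71, 4.94 and 4.94 in EV and 5.16, 5.21 and 5.41 in Cre. The groups did not overlap, and 5 of the 6 readings lay below the array medians. The difference was 0.39 (SE 0.10; 95% interval 0.17 to 0.62), or 1.31-fold higher in Cre, and it did not pass (limma adjusted p = 0.0849; unadjusted p = 0.00432). It passed in 1 of 13 alternative fits, with limma adjusted p-values from 0.0425 to 0.208. Among the 13 are 6 fits with 1 array left out, and Napepld passed in 0 of these 6. Of all genes tested, 4.23% had a difference of greater size than Napepld.

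Of the 7 relatives, then, 0 passed limma's adjusted p of 0.05, where 3.49% of all genes did, and 2 had an unadjusted p below 0.05, where 16.1% of all genes did. Readings of the groups lay apart for 2 of the 7, Gpcpd1 and Napepld, against 22.5% of all genes. With 7 genes these counts are close to the background. The median difference of the relatives was 0.04 and their median size of difference 0.08, against 0.09 for the size over all genes. Their 95% intervals together ran from -0.38 to 0.62. Each gene was also centred on its own mean. The root mean square distance of the relatives to Gdpd3 over the 6 arrays then ran from 2.77 for Gdpd1 to 3.01 for Napepld. By this distance Gdpd1 ranked 5569 and Napepld 19386 of 19732 genes, so even the nearest relative was not much like Gdpd3. The spread within groups was 0.03 to 0.20 (pooled SD) for the 8 genes, around the median of 0.11 over all genes.

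**Figure D2:**
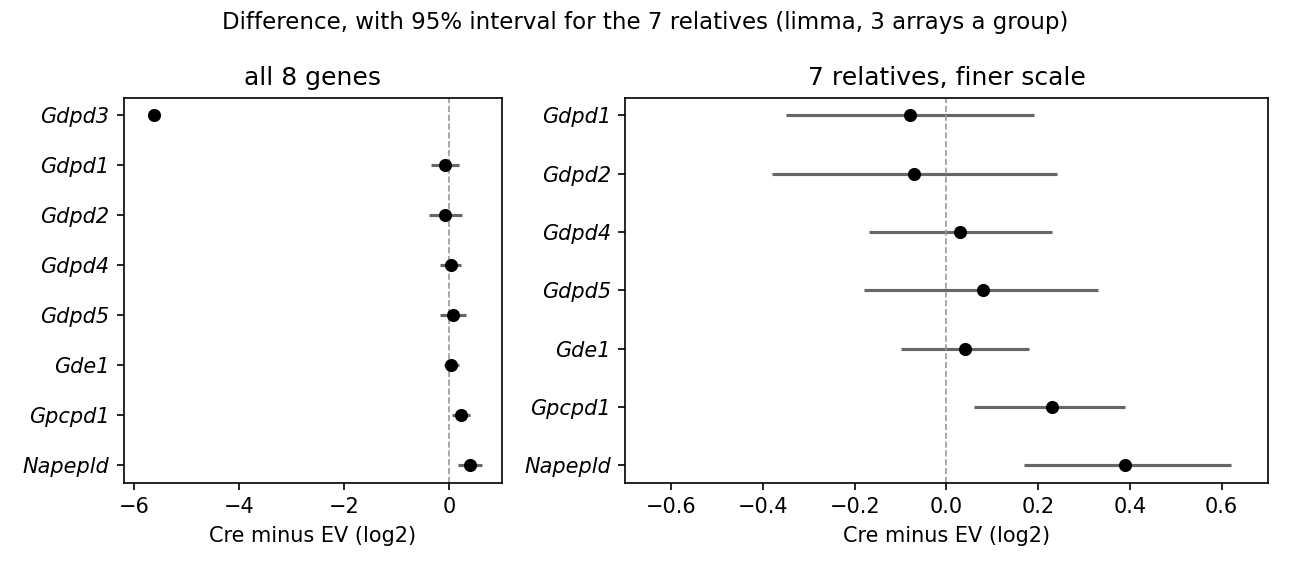
Cre minus EV difference (log2) of the 8 genes, with bars for limma's 95% interval of the 7 relatives (3 arrays a group), a point with no bar for Gdpd3 and a dashed line at no difference; the right panel shows the 7 relatives on a finer scale. Gdpd3 lies at -5.62, the relatives lie between -0.08 and 0.39, and the intervals of Gpcpd1 and Napepld lie above 0 before adjustment for the number of genes tested.

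The position of Gdpd3 on chromosome 7 was compared through its tested neighbours, in the order of the RefSeq gene table. Ypel3, a small regulator of growth and the next tested gene on one side, fell from 8.91, 8.79 and 8.74 in EV to 8.45, 8.49 and 8.35 in Cre. That is a difference of -0.38 (SE 0.07; limma adjusted p = 0.0342), with every Cre array below every EV array. The call of Ypel3 did not survive the removal of any single array (adjusted p up to 0.114). Aldoa, the main aldolase of glycolysis, is the fourth on that side and read 11.40, 11.41 and 11.34 in EV and 10.67, 10.48 and 10.32 in Cre. It fell by 0.89 on the log2 scale (SE 0.09; limma adjusted p = 0.00243) and passed in all 6 of those fits. The genes between them did not pass: Tbx6, a T-box transcription factor, differed by 0.06 (SE 0.10), and Ppp4c, the catalytic subunit of a phosphatase related to PP2A, by -0.04 (SE 0.07). Tlcd3b, the fifth, differed by 0.12 (SE 0.10).

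On the other side none of the nearest 5 passed. Coro1a, an actin regulator of white blood cells and the next tested gene, read 10.13, 10.29 and 10.07 in EV and 10.12, 10.04 and 10.16 in Cre, so the groups overlapped (-0.06, SE 0.08). Bola2 differed by -0.09 (SE 0.07), Slx1b by -0.21 (SE 0.11), Sult1a1, a sulfotransferase, by 0.19 (SE 0.14) and Sgf29, a chromatin reader, by -0.30 (SE 0.08; limma adjusted p = 0.114). Of the 10 tested genes on each side, 20 in all, 2 fell and 0 rose, and the other 18 differed by -0.30 to 0.26. Around the 7 relatives, 5 tested genes on each side were read. Pooled with those of Gdpd3, 8 of 90 neighbours fell and 2 rose, 11.1% against 3.49% of all genes. Removing replicate 2 or 3 of either group, each in turn, lowered the 10 calls to 6 of 90. In those fits the calls among all 19733 genes also fell, from 689 to between 362 and 424. Gdpd4, Gdpd5 and Gde1 are also on chromosome 7.

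**Figure D3:**
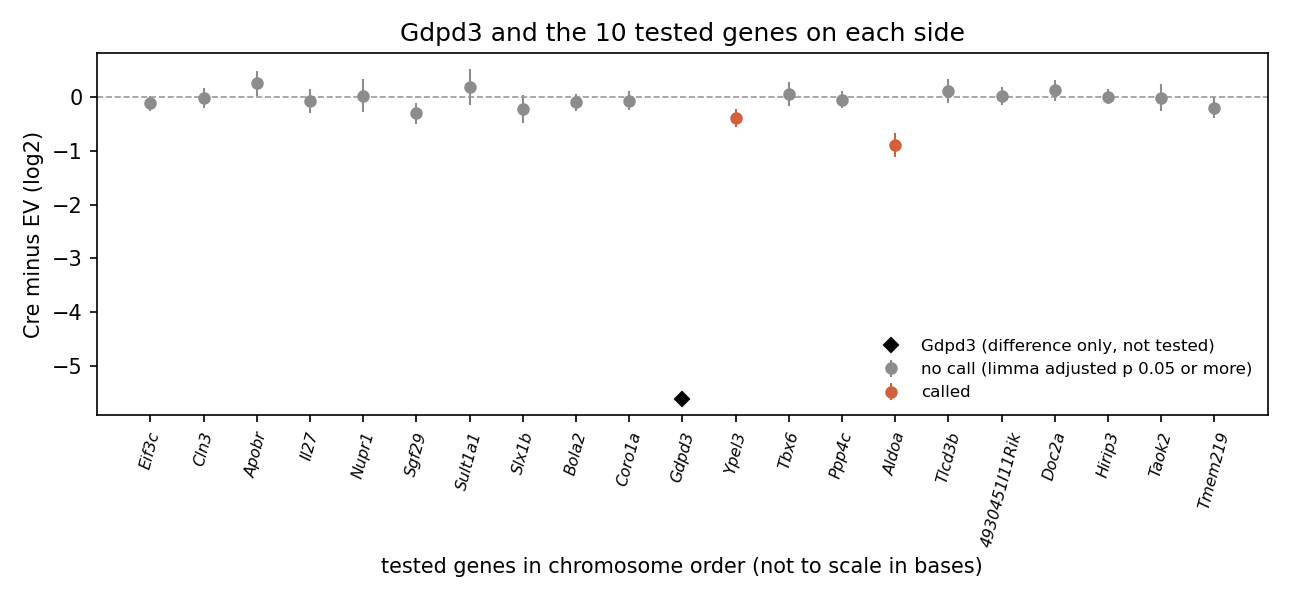
Cre minus EV difference (log2) of Gdpd3 and the 10 tested genes on each side, with limma's 95% interval for the neighbours and none for Gdpd3, placed in chromosome order and not by distance in bases. Gdpd3 lies at -5.62, Ypel3 at -0.38 and Aldoa at -0.89, and the 18 genes with no call lie between -0.30 and 0.26.

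Genes that make, sense or use the substrates and products of these enzymes were read as 8 lists. Of 92 entries, 86 were matched to a tested gene, and 4 fell and 2 rose (6.98%, against 3.49% of all genes). Over all genes, 2.14% fell and 1.35% rose. The median difference of the 86 was -0.01, and that of all genes rounds to 0.00.

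Of 9 other producers of LPA or phosphatidic acid, 1 rose and 0 fell, with a median of -0.03. The riser was Pld4, which, despite its name, is known as an exonuclease of the endolysosome rather than as a lipase. It read 8.20, 8.11 and 7.88 in EV and 8.52, 8.59 and 8.46 in Cre, with no overlap, a rise of 0.46 (SE 0.09; limma adjusted p = 0.0411). The call did not survive the removal of any single array (adjusted p up to 0.145) and with the repeat number as a block (adjusted p = 0.0627). Pld2, a phospholipase D that makes phosphatidic acid, differed by 0.11 (SE 0.08; limma adjusted p = 0.583). Enpp2, which encodes the secreted LPA producer autotaxin, was not matched to a tested gene.

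None of the 5 LPA receptors measured passed, with a median of 0.01. Lpar1 came nearest. It read 7.61, 7.66 and 7.73 in EV and 7.42, 7.33 and 7.32 in Cre, with no overlap, a difference of -0.31 (SE 0.07; limma adjusted p = 0.0567). Lpar2 differed by 0.15 (SE 0.09; limma adjusted p = 0.485) and overlapped. Lpar5 was not matched.

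Of 17 lipid phosphate phosphatases and lysophospholipid acyltransferases, which remove LPA or turn lysophospholipids back into phospholipids, 1 rose and 1 fell, with a median of -0.06. Lpcat2, an acyltransferase that also makes platelet-activating factor, read 4.41, 4.58 and 4.93 in EV and 5.55, 5.58 and 5.71 in Cre. All Cre arrays were above all EV arrays, and the rise was 1.96-fold (0.97, SE 0.13; limma adjusted p = 0.00735), from an EV level below the array medians. Plpp3, which dephosphorylates LPA at the cell surface, fell from 6.03, 6.11 and 5.94 in EV to 5.54, 5.70 and 5.43 in Cre, with no overlap. Its fall was 1.38-fold (-0.47, SE 0.09; limma adjusted p = 0.0311), and with a single array removed it passed in 1 fit of 6, that without Cre replicate 2 (adjusted p up to 0.107).

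Phospholipid deacylation supplies lysophospholipids and, one step on, the water-soluble glycerophosphodiesters. Of 11 genes measured, 2 fell and 0 rose, and the median difference was 0.02 while the mean was -0.14. Pla2g7, the secreted phospholipase that breaks down platelet-activating factor, read 7.52, 7.17 and 7.11 in EV and 6.34, 6.26 and 6.01 in Cre. The groups lay apart, and the fall was 2.09-fold (-1.06, SE 0.13; limma adjusted p = 0.00532). Pla2g12a, another secreted phospholipase, read 7.90, 7.89 and 7.90 in EV and 7.16, 6.94 and 6.83 in Cre. It fell 1.89-fold (-0.92, SE 0.09; limma adjusted p = 0.00187), with tight EV arrays and a wider spread in Cre. Both still passed whichever array was removed, as did Lpcat2.

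Further from the cleavage itself, 1 of 13 genes of choline and ethanolamine use fell and 0 rose, with a median of -0.03. Cept1, which joins either headgroup to diacylglycerol in the last step of phospholipid synthesis, read 7.78, 7.86 and 7.95 in EV and 7.30, 7.29 and 7.42 in Cre. It fell 1.44-fold (-0.53, SE 0.07; limma adjusted p = 0.00915), with no overlap, and still passed whichever array was removed (adjusted p up to 0.0456). Selenoi, which makes phosphatidylethanolamine, differed by -0.26 (SE 0.06; limma adjusted p = 0.0809). None of 8 genes of glycerol 3-phosphate production and acylation passed, with a median of 0.00. Gpat3 differed by -0.26 (SE 0.07; limma adjusted p = 0.106) and Gpam by -0.18 (SE 0.06; limma adjusted p = 0.177), both acyltransferases that begin glycerolipid synthesis.

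None of 13 genes of the N-acylethanolamine route and its receptors passed, with a median of 0.01. Gpr119, a receptor of oleoylethanolamide, differed by 0.29 (SE 0.10; limma adjusted p = 0.193) and Cnr2, the cannabinoid receptor of immune cells, by 0.22 (SE 0.08; limma adjusted p = 0.219). Both read below the array medians on all 6 arrays. Of 10 genes listed around the multi-pass members (GPI-anchored proteins, Prdx1, Gpld1 and Notum), 0 passed, with a median of 0.03. Gpc2, a GPI-anchored glypican, differed by 0.36 (SE 0.14; limma adjusted p = 0.27), and Prdx1, a peroxiredoxin that activates Gdpd5, by 0.12 (SE 0.06; limma adjusted p = 0.393). In each list with 0 calls the 2 genes named are those with the smallest p.

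**Figure D4:**
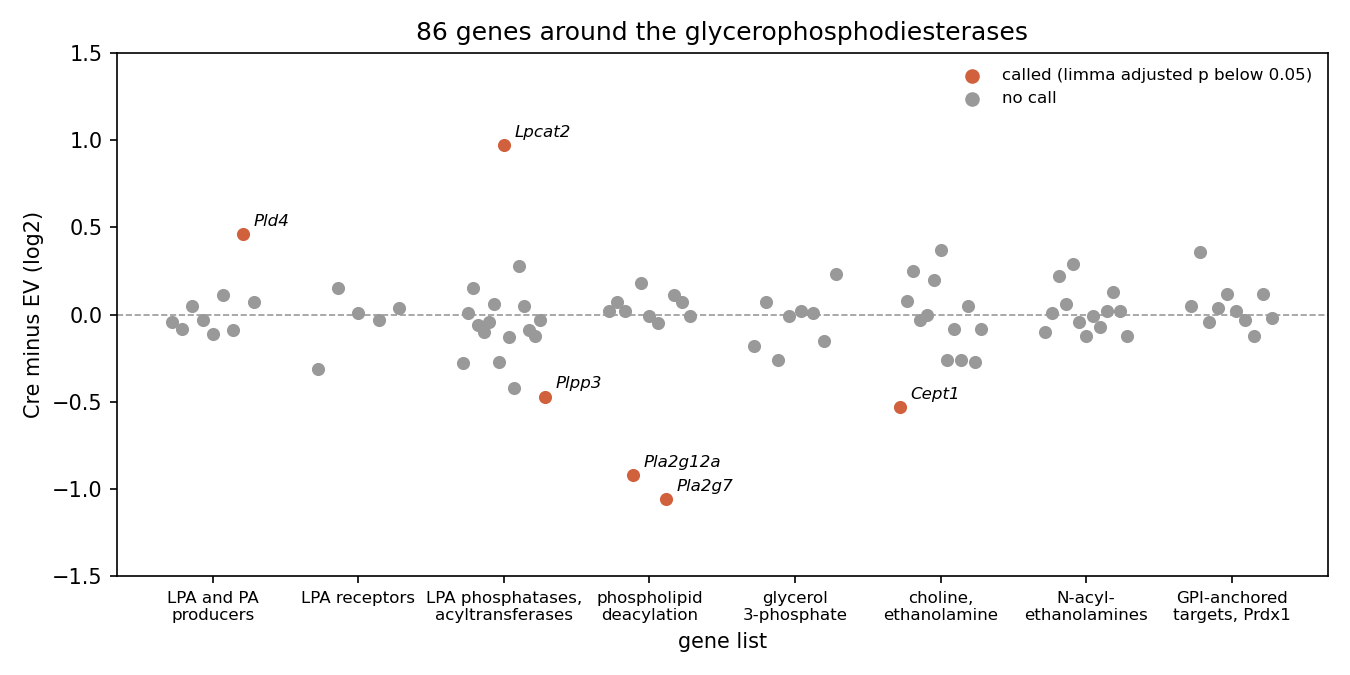
Cre minus EV difference (log2) of 86 genes in 8 lists around the glycerophosphodiesterases (LPA, lysophosphatidic acid; PA, phosphatidic acid), with called genes in red and named. Lpcat2 (0.97) and Pld4 (0.46) rose, and Pla2g7 (-1.06), Pla2g12a (-0.92), Cept1 (-0.53) and Plpp3 (-0.47) fell.

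The genes most like Gdpd3 over the 6 arrays were taken by the smallest root mean square difference after each gene was centred on its own mean. The 5 nearest of 19732 were Kynu (1.01 log2), Ppic (1.07), Ly86 (1.09), Firre (1.28) and Mt1 (1.32). They are also the 5 next largest falls, since the measure weighs size. Kynu, the kynureninase of tryptophan breakdown, read 8.56, 8.87 and 9.14 in EV and 5.11, 5.37 and 5.15 in Cre. Mt1, a metallothionein, read 10.46, 10.61 and 10.44 in EV and 7.54, 7.56 and 7.47 in Cre. Ly86, the partner of a Toll-like receptor homologue, read 7.83, 8.01 and 7.95 in EV and 4.80, 4.20 and 4.35 in Cre. Each lay apart between groups, and these 5 were chosen on the compared arrays, so no test is given for them.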

How the data were processed

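The authors deposited 1 log2 value per probe set and array for 6 Affymetrix arrays (3 Cre, 3 EV), made with RMA per the submitters' processing notes; no source used here gives its version. Quantile normalization within RMA sets all arrays to one distribution, so each difference is relative to the other genes. Of 25006 probe sets, 21467 had 1 gene symbol in the platform annotation, 1521 several and 2018 none; only the first were tested, and 21386 of them were matched by gene identifier to RefSeq (GRCm38.p6) for names, chromosomes and gene order. For the 931 genes with several probe sets the one with the highest mean was kept, leaving 19733 genes. Cre was compared with EV by limma 3.58.1 in R 4.3.3 (lmFit, eBayes, no block, no filter), with Benjamini-Hochberg adjustment over all genes and a call at an adjusted p below 0.05. Python 3.11.15, pandas 2.3.3 and matplotlib 3.10.9 made tables and plots. The fit was tested on simulated data. Errors are SDs of 3 arrays or SEs of limma's fit, and the number of arrays limits the precision. The members and lists were chosen with earlier results of these data known. Named were all members, in each list up to 4 genes that passed (or, where fewer than 2 did, the 2 with the smallest p), the 5 tested genes on each side of Gdpd3, the 5 genes most like it, and Ppp2r1a; Rag1, Dntt and Krt8 were named after their values were seen.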

Additional observations from a re-analysis of the deposited data

How the results depend on the processing

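The Gdpd3 difference lay between -5.62 and -5.61 under the 8 alternative settings and between -5.66 and -5.60 with 1 array left out. The count of relatives that passed went from 0 to 2 with trend and robust variance settings in eBayes (Gpcpd1 and Napepld, both higher in Cre) and to 1 of 3 left for testing without the lowest 50% of genes (Gpcpd1); it was 0 in the 6 fits with 1 array left out. Pathway genes called went from 6 of 86 to 15 of 86 with trend and robust settings. Without the lowest 50% of genes they were 13 of 49. Under the same 2 settings all genes called went from 689 of 19733 to 1558 of 19733 and 1295 of 9866. The cause was not tested. With 1 array left out, 4 to 5 pathway genes, 6 to 8 neighbours (of 10), 1 neighbour of Gdpd3 (of 2) and 362 to 424 of all genes were called. The difference then ran from -0.17 to 0.04 for Gdpd1, -0.19 to 0.03 for Gdpd2, -0.06 to 0.07 for Gdpd4 and -0.02 to 0.15 for Gdpd5, so their signs are not settled. The repeat number as a block left 425 genes and 1 neighbour of Gdpd3 (Aldoa) called. Deviations of same-numbered arrays correlated at 0.009, -0.014 and 0.024, and those of other-numbered arrays at -0.025 to 0.018. No variation shared by number was seen, but this cannot settle whether the numbers pair the samples, which the labels do not say. Gdpd2, Gdpd4, Gdpd5 and Napepld are dim, as is Gdpd3 in the Cre cells, which limits what a reading there can show.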
